A study of Mus musculus with 9 samples.

Results

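The 79 genes described here encode the nuclear part of oxidative phosphorylation: the subunits of respiratory complexes I, III, IV and V that are made from chromosomal genes, and the Ndufaf assembly factors of complex I. They were chosen by name, as every gene of the expression table whose symbol begins with Nduf, Uqcr, Cox4, Cox5, Cox6, Cox7, Cox8 or Atp5, without "-ps" names and with a mean normalized count of 10 or more over all libraries. Such a name was carried by 88 of 23420 genes in the table, and 79 of these 88 passed: 36 of complex I (Nduf), 8 of complex III (Uqcr), 11 of complex IV (Cox), 17 of complex V (Atp5) and 7 Ndufaf factors. RNA had been sequenced from mouse regulatory T cells (Tregs), the suppressive CD4 T cells marked by Foxp3, in 9 libraries. There were 3 libraries each from the synovium of mice with collagen-induced arthritis, from lymph nodes draining the joints of such mice (CIA_dLN), and from draining lymph nodes of untreated control mice (Ctrl_dLN). In this model immunization with collagen leads to inflamed joints. All 9 samples carry the genotype label WT and all were sorted on a yellow fluorescent Foxp3 reporter after digestion of paws or nodes; no strain, age or sex was stated. By their titles the 9 libraries come from 3 arthritic and 3 control mice, the synovial and CIA_dLN libraries sharing the numbers of the arthritic mice.

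Oxidative phosphorylation moves electrons from nutrients to oxygen and uses the energy to make ATP. Complex I takes electrons from NADH and complex II from succinate, and both give them to coenzyme Q. Complex III passes them from coenzyme Q to cytochrome c, and complex IV hands them to oxygen. The protons pumped along the way return through complex V, the ATP synthase. Most subunits are imported from the cytosol, a minority is encoded by mitochondrial DNA, and dedicated assembly factors build each complex. Tregs are known to depend on mitochondrial respiration more than effector T cells do.

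The 8 libraries whose reads were counted as recovered held 11844390 to 12855435 reads assigned to genes, Ctrl_dLN library 1 being the other. The values are read counts that the authors divided by a size factor per library, called normalized counts here. Replicates correlated across genes at r = 0.910 to 0.946. The normalized totals were not level: they ran from 13695900 to 14287200 in synovial libraries, from 11050300 to 11395800 in CIA_dLN and from 10843400 to 11341900 in Ctrl_dLN libraries. Summed Treg markers (Foxp3, Il2ra, Ctla4, Ikzf2, Cd4 and Cd3e) ran from 97526 to 102147 in synovial, 39877 to 46077 in CIA_dLN and 44039 to 48824 in Ctrl_dLN libraries, with each of the 6 above 0 in each group. Of the markers of other cells, the 8 dendritic ones summed to 12966 to 15836 in synovial, 4433 to 5331 in CIA_dLN and 3099 to 4733 in Ctrl_dLN libraries. Itgax and Clec9a were at 0 in synovial libraries. Among the 4 dendritic markers tested, Cd74, Xcr1 and Zbtb46 passed as higher in synovium than in CIA_dLN, and 1 differed the other way without passing. The 8 fibroblast markers summed to 2758 to 5691 in synovial, 2821 to 3441 in CIA_dLN and 2882 to 3349 in Ctrl_dLN libraries. Of the 7 tested, 1 passed as higher in synovium than in CIA_dLN, and 1 differed the other way without passing. The median log2 fold change of these 7 was 2.34. Without synovial library 3 it was 0.18 and 0 passed. Sums of the 9 macrophage and monocyte markers reached 314, 536 and 367 in these 3 groups, with Fcgr1 at 0 in synovial libraries. From the 4 of these tested, 1 passed as higher in synovium than in CIA_dLN and 3 differed the other way without passing. Mast cell markers summed to 407 to 835, 37.5 to 87 and 77.3 to 109, with Mcpt4, Cma1 and Tpsb2 at 0 in synovial libraries. Only 2 mast cell markers were tested: 1 passed as higher in synovium than in CIA_dLN and 1 differed the other way without passing. The 5 endothelial and erythroid markers summed to 1488 to 1759 in synovial, 2319 to 2974 in CIA_dLN and 2837 to 3378 in Ctrl_dLN libraries. Of the 2 tested, Pecam1 passed as lower in synovium than in CIA_dLN and 1 differed the other way without passing. Kdr and Hba-a1 were at 0 in synovial libraries. Neutrophil markers summed to 38.6 to 108 in synovial, 0 to 25 in CIA_dLN and 0 to 1 in Ctrl_dLN libraries. Only 1 of them was tested, Ltf, which passed as higher in synovium than in CIA_dLN. Its call was lost with edgeR or DESeq2, and without synovial library 1 or 3 or CIA_dLN library 1 or 3. The part of such cells in the differences below was not tested. In bulk RNA, fewer cells of a type and less RNA per cell cannot be told apart.

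The 79 members together differed little in sum on the authors' scale and were a smaller share of the synovial libraries. Their summed normalized counts averaged 151024 ± 3170 in synovial Tregs, 155153 ± 2320 in CIA_dLN Tregs and 159197 ± 5490 in Ctrl_dLN Tregs (mean ± SD, n = 3 each). As a share of all normalized counts they made up 1.08% ± 0.0279 in synovial Tregs, against 1.38% ± 0.00388 in CIA_dLN and 1.43% ± 0.0168 in Ctrl_dLN Tregs. On the first scale the synovial libraries (147367 to 152978) all lay below the CIA_dLN ones (153378 to 157778) by little, and on the second the gap was wide (1.07% to 1.12% against 1.38% to 1.39%). The ratio of synovial to CIA_dLN means was 0.973 for the sum and 0.784 for the share. The first scale assumes that most genes do not differ; the second counts what part of the RNA the genes held. All fold changes below are on the first scale unless said otherwise, as log2 of the normalized count plus 1, tested with limma and adjusted by the Benjamini-Hochberg method over all 11357 genes tested; "rose" and "fell" mark an adjusted p under 0.05.

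**Figure D1:**
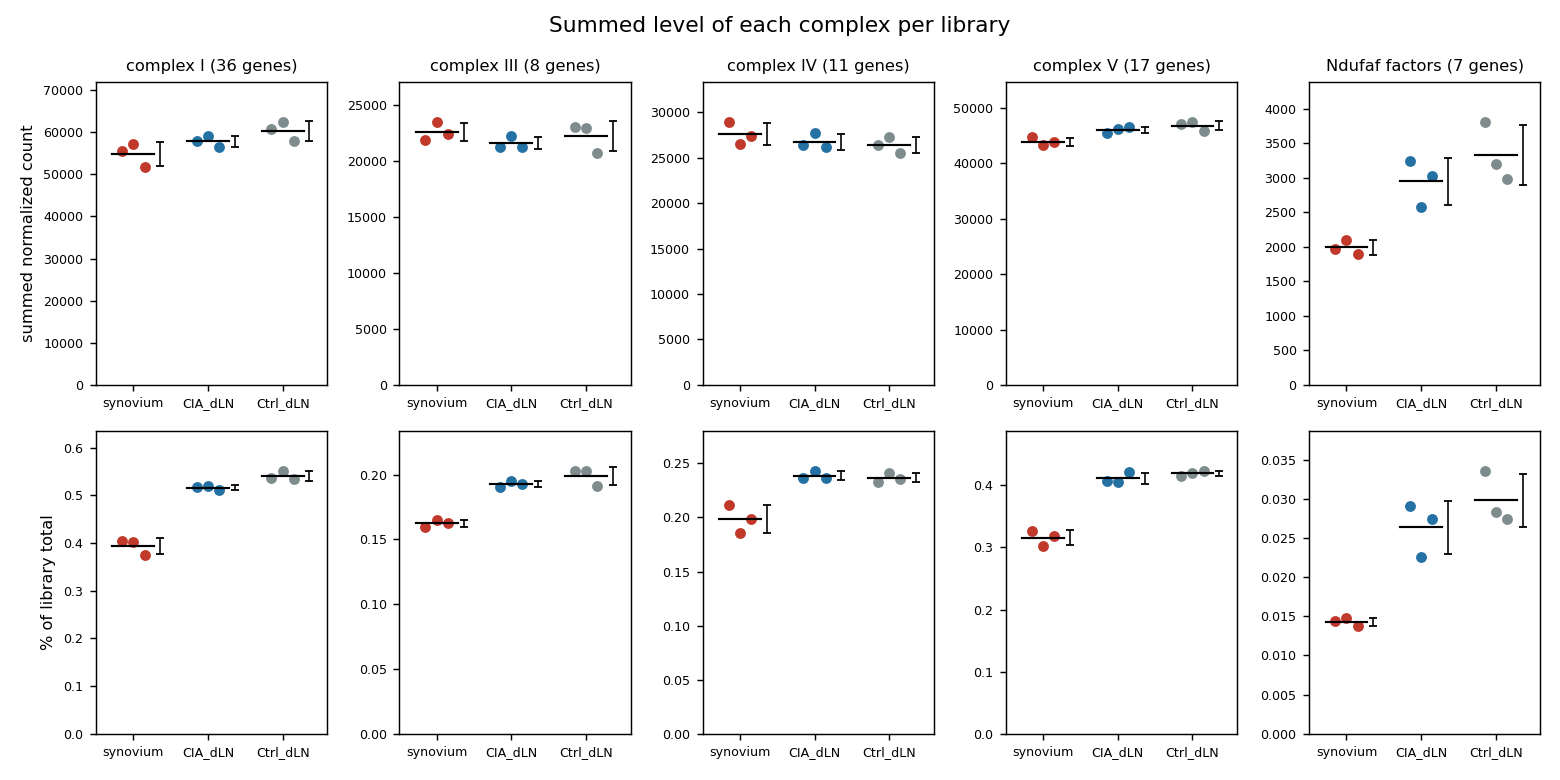
Summed normalized count of each complex (upper panels) and its share of all normalized counts in the library (lower panels, %), with 1 point per library, the mean as a line and the SD as a bar. In the upper panels synovial and node libraries overlap for complexes I, III and IV, and the Ndufaf sums of 1893 to 2105 in synovium lie below those of 2573 to 3245 in CIA_dLN; in the lower panels the synovial points are below the node points for every complex.

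Sums per complex are given as a description, and no test compared the complexes. On the authors' scale, complex I summed to 54802 ± 2850 in synovial Tregs, 57791 ± 1372 in CIA_dLN Tregs and 60347 ± 2338 in Ctrl_dLN Tregs. Complex IV summed to 27658 ± 1217, 26757 ± 853 and 26428 ± 872 in these groups, and complex III to 22608 ± 835, 21599 ± 533 and 22240.0 ± 1333. For complex V the sums were 43966 ± 723, 46057 ± 576 and 46852 ± 822. The libraries of complexes I, III and IV overlapped between synovium and CIA_dLN, while those of the Ndufaf factors did not. The Ndufaf sums were 1990.0 ± 107 in synovial Tregs, against 2949.8 ± 343 in CIA_dLN and 3331 ± 430.4 in Ctrl_dLN Tregs. The synovial sums of complex V and of the Ndufaf factors lay below all 6 node libraries. The ratio of the complex I sum to the complex IV sum, which does not depend on the scaling, was 1.91, 2.16 and 1.88 in synovial Tregs, against 2.19, 2.13 and 2.16 in CIA_dLN and 2.30, 2.29 and 2.26 in Ctrl_dLN Tregs. With genes grouped by symbol, synovial libraries 1 and 3 were lower than every node library and synovial library 2 was not. The complex I sum includes Ndufa4, now known as a complex IV subunit, at 2313 in synovial library 2. The place of that library depends on which complex Ndufa4 is counted in.

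Between synovial and CIA_dLN Tregs, 16 of the 79 members passed, or 20.3%, where 33.8% of all genes tested did. Of these, 6 rose (7.59%, against 17.9% of all genes) and 10 fell (12.7%, against 15.9%). With the mouse number as a block, 2 rose and 7 fell, where 33.2% of all genes passed. At an unadjusted p under 0.05 there were 28 (35.4%), against 43.4% of all genes. The libraries of both groups did not overlap in 38 members, or 48.1%, against 48.2% of all genes. The median log2 fold change was -0.06 over the members and -7.25e-05 over all genes, and the median size without regard to sign was 0.20 against 0.56. Most members are abundant, with 72 of 79 at a mean of 500 or more; over all genes at that level the median size was 0.43 and 48.5% passed. A change of at least 1 on the log2 scale, seen in 28.6% of all genes, occurred in 1 member, Ndufaf6. By complex, the medians were -0.16 for complex I, 0.03 for complex III, 0.20 for complex IV, -0.06 for complex V and -0.65 for the Ndufaf factors.

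**Figure D2:**
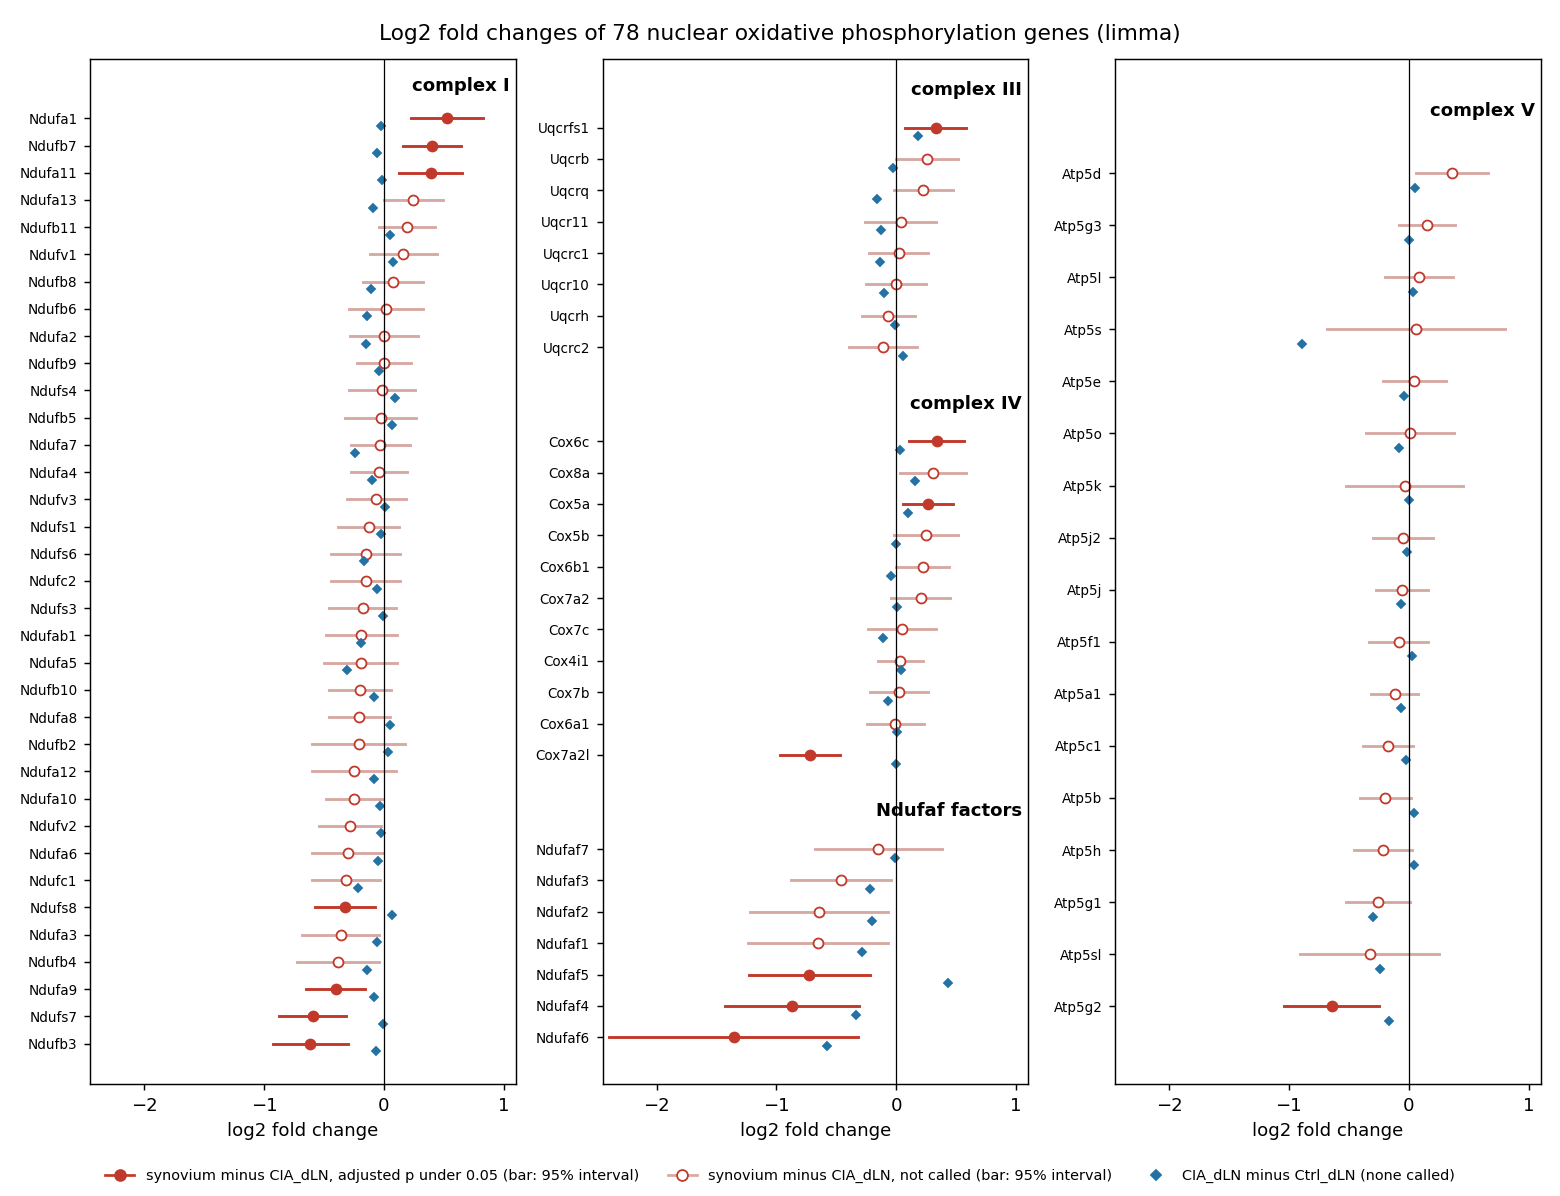
Log2 fold changes of 78 members, sorted within each complex. Red points are synovium minus CIA_dLN with 95% intervals, filled where the adjusted p was under 0.05, and blue diamonds are CIA_dLN minus Ctrl_dLN. The red points of the 7 Ndufaf factors all lie below 0, 9 of 11 of complex IV lie above 0, and 25 of the 35 drawn of complex I lie below 0.

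Scaling set the sign of the small changes. Dividing each library by its total, an alternative chosen after the totals had been seen, shifted the median of all genes by -0.31. It gave 0 higher and 47 lower members, where 1381 of all 11357 genes passed as higher and 3325 as lower. Relative to that shift the members' median was -0.07. Quantile normalization shifted all genes by -0.12 and gave 0 higher and 29 lower members, with a members' median of -0.15 relative to the shift. Of all 11357 genes, 1711 passed as higher and 2344 as lower in that fit. The 10 members that fell also fell under both of these scalings, and none of the 6 that rose did so under either. Over all genes 52.9% of calls were higher in synovium on the authors' scale, 42.2% after quantile normalization and 29.3% on library totals. Rises below are therefore rises relative to the bulk of genes on the authors' scale.

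**Figure D3:**
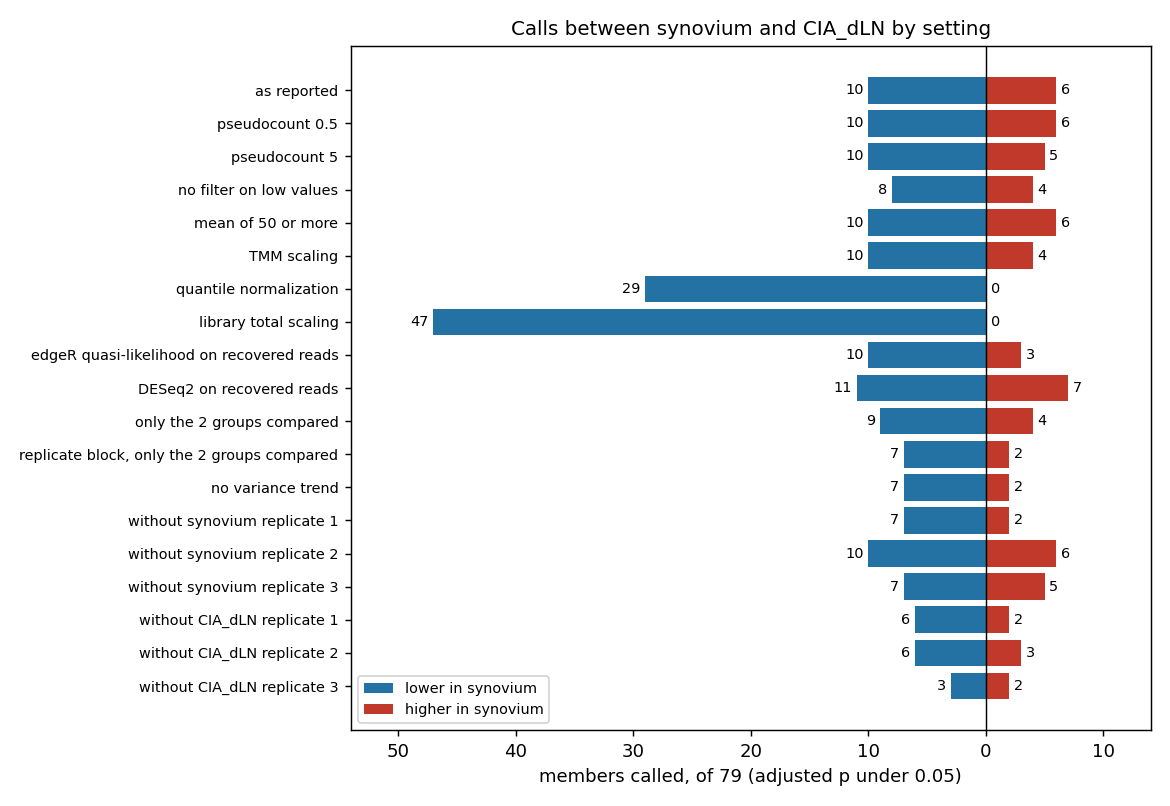
Number of members that passed as higher (red, to the right) or lower (blue, to the left) in synovium than in CIA_dLN, of 79, under each setting. The counts were 6 and 10 as reported, 0 and 29 with quantile normalization, 0 and 47 on library totals, and 2 and 3 without CIA_dLN replicate 3.

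Promoter sequence is shown for 5 of the members that changed, because genes for respiratory subunits are known to share sites for the factors NRF1, GABP (of the ETS family) and YY1. Each run below covers 130 bases before and 20 after the start of transcription, read 5′ to 3′ on the gene's strand, from RefSeq on GRCm38.p6; capitals mark a match to the NRF1 letters (GCGCA, then any base N, then GCGC) or to CCGGAAG (ETS).
Cox7a2l: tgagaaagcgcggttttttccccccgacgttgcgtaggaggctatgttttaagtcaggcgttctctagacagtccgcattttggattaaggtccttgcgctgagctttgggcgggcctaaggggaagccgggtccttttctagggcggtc
Atp5g2: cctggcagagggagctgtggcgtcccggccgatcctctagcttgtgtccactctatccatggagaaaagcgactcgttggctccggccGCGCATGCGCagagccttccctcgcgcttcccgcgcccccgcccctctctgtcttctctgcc
Ndufaf4: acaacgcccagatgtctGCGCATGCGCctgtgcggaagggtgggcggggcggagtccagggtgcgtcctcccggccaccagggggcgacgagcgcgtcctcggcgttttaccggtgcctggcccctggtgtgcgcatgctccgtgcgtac
Ndufa11: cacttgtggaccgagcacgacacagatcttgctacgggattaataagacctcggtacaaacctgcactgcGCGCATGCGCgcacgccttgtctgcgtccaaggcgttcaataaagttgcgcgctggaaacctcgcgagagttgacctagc
Ndufb7: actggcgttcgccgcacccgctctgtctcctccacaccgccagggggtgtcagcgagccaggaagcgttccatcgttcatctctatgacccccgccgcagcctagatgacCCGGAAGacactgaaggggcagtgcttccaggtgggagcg
The windows are chr17:83514314-83514463 (minus) for Cox7a2l, chr15:102671028-102671177 (minus) for Atp5g2, chr4:24897953-24898102 (plus) for Ndufaf4, chr17:56717632-56717781 (plus) for Ndufa11 and chr8:83566628-83566777 (plus) for Ndufb7. The NRF1 match begins 42 bases before the start in Atp5g2, 113 before in Ndufaf4 and 60 before in Ndufa11, and the ETS match 20 before in Ndufb7; none of the 3 motifs was found in the longer window of Cox7a2l, which draws nothing about the factors. Genes that fell and genes that rose both carry the NRF1 letters. The windows of Cox7a2l and Atp5g2 lie inside the GENCODE spans of these minus-strand genes, which reach 83517330 and 102672352. Sequence at those outer ends is not in the windows.

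Over windows of 300 bases (250 before and 50 after the start, both strands), the NRF1 letters were found in 24.3% of the 70 windows of 65 members, against 4.60% of 32851 windows of all genes. CCGGAAG was in 21.4% against 8.86%, and the YY1 letters AAGATGG in 14.3% against 6.34%; the last 2 motifs share the letters AAG and can overlap. NRF1 letters were in 3 of 8 windows of members that fell, 1 of 5 of those that rose and 13 of 57 of the rest. A match is a description of letters and not of binding.

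Core subunits of complex I, which carry the electrons through its peripheral arm, include Ndufs7 and Ndufs8, which fell; this grouping was made after values were seen. Ndufs7 binds the last iron-sulfur cluster before coenzyme Q. Its normalized counts were 1164, 1229 and 948 in synovial Tregs, against 1747, 1722 and 1549 in CIA_dLN Tregs and 1604, 1732 and 1706 in Ctrl_dLN Tregs. All synovial libraries lay below all node libraries, and Ndufs7 fell by 0.59 (SE 0.13, adjusted p = 0.00362). Ndufs8, another iron-sulfur subunit, had 1450.1, 1599 and 1354 in synovial Tregs, against 1838, 1755 and 1923 in CIA_dLN Tregs and 1625, 1814 and 1829.6 in Ctrl_dLN Tregs. Its synovial libraries were the lowest, and it fell by 0.33 (SE 0.12, adjusted p = 0.0444). Among core members that did not pass, Ndufv1, which binds NADH, differed by 0.16 (SE 0.13, adjusted p = 0.365), Ndufv2 by -0.28 (SE 0.12, adjusted p = 0.0844), Ndufs1 by -0.13 (SE 0.12, adjusted p = 0.44) and Ndufs3 by -0.18 (SE 0.13, adjusted p = 0.323). With the mouse number as a block, Ndufs7 passed, while Ndufs8 (adjusted p = 0.0914) did not. Ndufs8 was also not called without synovial library 1 (0.0981) or 3 (0.099), or CIA_dLN library 1 (0.103), 2 (0.0699) or 3 (0.135).

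Accessory subunits of complex I, which surround and stabilize the core, went both ways. Ndufb3 in the membrane arm had 544, 515 and 569.7 in synovial Tregs, against 765, 915 and 822 in CIA_dLN Tregs and 821, 955 and 841 in Ctrl_dLN Tregs. Synovial values were below every node value, and it fell by 0.62 (SE 0.14, adjusted p = 0.00573). Ndufa9, which sits at the junction of the arms, had 1879, 1632 and 1575 in synovial Tregs, against 2298, 2135 and 2263 in CIA_dLN Tregs and 2558, 2298 and 2234 in Ctrl_dLN Tregs. Its groups did not overlap between synovium and nodes, and it fell by 0.40 (SE 0.11, adjusted p = 0.0159). In the other direction, Ndufa1, a small membrane subunit encoded on chromosome X, had 1302, 1239 and 1310.3 in synovial Tregs, against 779, 1054 and 859.6 in CIA_dLN Tregs and 905, 872 and 946 in Ctrl_dLN Tregs. The synovial libraries were the 3 highest, and it rose by 0.53 (SE 0.14, adjusted p = 0.0115). Ndufb7, on the outer face of the membrane arm, had 3233, 3373 and 2882 in synovial Tregs, against 2407, 2262 and 2484 in CIA_dLN Tregs and 2389, 2749.8 and 2306 in Ctrl_dLN Tregs, all synovial values being above all node values. It rose by 0.41 (SE 0.11, adjusted p = 0.0138). Ndufa11, a membrane subunit that also touches complex III in supercomplexes, had 1438, 1503 and 1423 in synovial Tregs, against 1151, 1108 and 1071 in CIA_dLN Tregs and 1208, 1145 and 1016 in Ctrl_dLN Tregs; the synovial libraries were highest and it rose by 0.39 (SE 0.12, adjusted p = 0.0247). With the mouse number as a block Ndufb3, Ndufa9, Ndufa1 and Ndufb7 passed and Ndufa11 (adjusted p = 0.0502) did not. Ndufa9 was not called without CIA_dLN library 1 (0.0574) or 3 (0.0515), Ndufa1 not without CIA_dLN library 1 (0.0565), Ndufb7 not without CIA_dLN library 2 (0.0557), and Ndufa11 not without synovial library 1 (0.0549) or 2 (0.0559), or CIA_dLN library 2 (0.0637) or 3 (0.0786). Exons of Ndufa9 overlap 1700018A23Rik and those of Ndufa11 overlap Vmac, each on the other strand; strand use in counting was not stated, so both are uncertain.

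Among the other 28 members of complex I, which did not pass, log2 fold changes ran from -0.38 (Ndufb4) to 0.25 (Ndufa13). Ndufa4, placed with complex I by its symbol but now known as a complex IV subunit, differed by -0.04 (95% interval -0.27 to 0.20, adjusted p = 0.817). Ndufab1, the mitochondrial acyl carrier protein, differed by -0.19 (95% interval -0.49 to 0.11, adjusted p = 0.327). Ndufb9 averaged 1781 ± 80 in synovial Tregs, against 1777 ± 61.5 in CIA_dLN Tregs and 1828 ± 48.5 in Ctrl_dLN Tregs, and differed by 0.0026 (95% interval -0.22 to 0.23, adjusted p = 0.988). These intervals bound the change at these replicate numbers and do not show that levels were equal.

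Of the Ndufaf factors, 3 of 7 fell, where 15.9% of all genes did, and the libraries of synovium and CIA_dLN did not overlap in 6 of 7, against 48.2% of all genes. Ndufaf4, an early assembly factor, had 475, 259 and 499 in synovial Tregs, against 947, 555 and 719.8 in CIA_dLN Tregs and 959.5, 853 and 926 in Ctrl_dLN Tregs. All synovial libraries lay below all node libraries, with synovial library 2 the lowest, and it fell by 0.87 (SE 0.26, adjusted p = 0.0198). Ndufaf5, which modifies Ndufs7, had 182, 196 and 182 in synovial Tregs, against 273, 383 and 281 in CIA_dLN Tregs and 238, 235 and 214 in Ctrl_dLN Tregs. Its CIA_dLN libraries were the highest of the 3 groups and it fell by 0.72 (SE 0.23, adjusted p = 0.031). Ndufaf6, another early assembly factor, had 35.3, 48.1 and 15.7 in synovial Tregs, against 67.8, 78.9 and 90 in CIA_dLN Tregs and 96.4, 130 and 129 in Ctrl_dLN Tregs. It is the least abundant of the 79 members, its 3 groups did not overlap, and it fell by 1.36 (SE 0.48, adjusted p = 0.0445), or 2.56-fold on this scale. Ndufaf1, a part of the intermediate assembly complex, had 299.7, 433 and 271 in synovial Tregs, against 576, 511 and 466 in CIA_dLN Tregs and 932, 599 and 446 in Ctrl_dLN Tregs. No synovial value reached a node value, but the difference of -0.65 (SE 0.27, adjusted p = 0.0791) did not pass. Ndufaf2, a late assembly factor, had 152, 121 and 120.2 in synovial Tregs, against 195, 184 and 237 in CIA_dLN Tregs and 225, 210.3 and 273 in Ctrl_dLN Tregs, also without overlap between synovium and nodes. It differed by -0.64 (SE 0.26, adjusted p = 0.0808), Ndufaf3 by -0.46 (SE 0.19, adjusted p = 0.0828) and Ndufaf7, whose libraries overlapped, by -0.15 (SE 0.24, adjusted p = 0.678). Exons of Ndufaf2 overlap B230220B15Rik and those of Ndufaf3 overlap Impdh2, each on the other strand, so both are uncertain.

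Calls among the Ndufaf factors moved with the fit. In the block fit Ndufaf4 passed and so did Ndufaf1 (adjusted p = 0.0475; 0.0101 to 0.218 over its alternatives), while Ndufaf5 (0.0562) and Ndufaf6 (0.0976) did not, so that 2 of 7 passed. Ndufaf4 was not called without synovial library 2 (0.0627), or CIA_dLN library 1 (0.0932) or 3 (0.0517). Ndufaf5 was not called without synovial library 1 (0.0743) or 3 (0.0595), or CIA_dLN library 2 (0.132) or 3 (0.0507), and Ndufaf6 not with edgeR (0.0635) or without synovial library 1 (0.0668) or 3 (0.131), or CIA_dLN library 1 (0.0779), 2 (0.0996) or 3 (0.12). The authors' deposited table lists Ndufaf1 at -0.65 (adjusted p = 0.0379), Ndufaf4 at -0.87 (adjusted p = 0.0155) Ndufaf5 at -0.76 (adjusted p = 0.0221) and Ndufaf6, which is not called there, at -1.28 (adjusted p = 0.0847).

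Of 8 complex III members, 1 rose. Uqcrfs1 is the Rieske iron-sulfur protein, which passes electrons from coenzyme Q towards cytochrome c1. Its normalized counts were 3376, 2885 and 3558 in synovial Tregs, against 2403, 2697 and 2699 in CIA_dLN Tregs and 2465, 2291 and 2117 in Ctrl_dLN Tregs. Synovial libraries were the 3 highest, and it rose by 0.33 (SE 0.12, adjusted p = 0.0445). It did not pass in the block fit (adjusted p = 0.0726), with edgeR (0.0871) or without synovial library 1 (0.118) or 3 (0.117), or CIA_dLN library 1 (0.154), 2 (0.0751) or 3 (0.0758). Uqcrfs1 is also not called in the authors' deposited DESeq2 result, at 0.31 (adjusted p = 0.0739). Uqcrb and Uqcrq are small subunits near the coenzyme Q site. Uqcrb had 2127, 1851 and 1838 in synovial Tregs, against 1626, 1523 and 1708 in CIA_dLN Tregs and 1687, 1776 and 1489 in Ctrl_dLN Tregs. Uqcrq had 1644, 1853 and 1541 in synovial Tregs, against 1428, 1476 and 1394 in CIA_dLN Tregs and 1645, 1560 and 1606 in Ctrl_dLN Tregs. Both were higher in all synovial than in all CIA_dLN libraries, with differences of 0.26 (SE 0.12, adjusted p = 0.117) for Uqcrb and 0.23 (SE 0.11, adjusted p = 0.149) for Uqcrq that did not pass.

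Uqcrc2, Uqcrh and Uqcrc1 overlapped between synovium and CIA_dLN. The core protein Uqcrc2 had 2329, 2831 and 3103 in synovial Tregs, against 3124, 2987 and 2761 in CIA_dLN Tregs and 2892, 3136 and 2531 in Ctrl_dLN Tregs, a difference of -0.11 (95% interval -0.39 to 0.17, adjusted p = 0.545). The hinge protein Uqcrh had 4378, 3854 and 3867 in synovial Tregs, against 4192, 4412 and 4052 in CIA_dLN Tregs and 4426, 4484 and 3867 in Ctrl_dLN Tregs, a difference of -0.07 (95% interval -0.29 to 0.15, adjusted p = 0.653). Uqcrc1, the other core protein, averaged 6178 ± 982 in synovial Tregs, against 6042 ± 166 in CIA_dLN Tregs and 6642 ± 258 in Ctrl_dLN Tregs. Its difference was 0.02 (95% interval -0.22 to 0.27, adjusted p = 0.909), and -0.29 on library totals.

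Of 11 complex IV members, 2 rose and 1 fell. The one that fell, Cox7a2l, had the smallest p of all 79. It is a relative of the Cox7a subunits, known to join complexes III and IV into supercomplexes. Cox7a2l had 2528, 2269.7 and 2125 in synovial Tregs, against 3909, 4029 and 3456 in CIA_dLN Tregs and 4079, 3999 and 3363 in Ctrl_dLN Tregs. Every synovial value was below every node value, and both node groups had similar ranges. It fell by 0.72 (SE 0.12, adjusted p = 0.000504), and held its call in each of 18 alternative settings (adjusted p from 5.43e-07 to 0.00841). The gene lies on chromosome 17 from 83501918 to 83517330 on the minus strand (GRCm38), with no exon overlap. Its paralog Cox7a2, the ordinary subunit of that position, had 1626, 1450.1 and 1553 in synovial Tregs, against 1264, 1391 and 1360.1 in CIA_dLN Tregs and 1303, 1388 and 1305 in Ctrl_dLN Tregs. Synovial libraries were the highest, but the difference of 0.20 (SE 0.11, adjusted p = 0.187) did not pass. The ratio of Cox7a2l to Cox7a2, free of the scaling, was 1.55, 1.57 and 1.37 in synovial Tregs, against 3.09, 2.90 and 2.54 in CIA_dLN and 3.13, 2.88 and 2.58 in Ctrl_dLN Tregs. This ratio was 1.5 ± 0.111 in synovial, 2.84 ± 0.28 in CIA_dLN and 2.86 ± 0.277 in Ctrl_dLN Tregs, without overlap between synovium and nodes.

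Cox6c, a small membrane subunit, and Cox5a, a subunit on the matrix side, were the members of complex IV that rose. Cox6c had 2149, 2183 and 2014 in synovial Tregs, against 1582, 1753 and 1689 in CIA_dLN Tregs and 1704, 1638 and 1558 in Ctrl_dLN Tregs; synovial values were the 3 highest and it rose by 0.34 (SE 0.11, adjusted p = 0.0279). Cox5a had 3002, 2858 and 3012 in synovial Tregs, against 2449.7, 2455 and 2474 in CIA_dLN Tregs and 2199, 2357 and 2345 in Ctrl_dLN Tregs, the synovial values again being highest, and it rose by 0.27 (SE 0.09, adjusted p = 0.0479). In the block fit neither passed (adjusted p = 0.0636 for Cox6c and 0.104 for Cox5a), nor with edgeR (0.0603 for Cox6c and 0.114 for Cox5a). The authors' deposited DESeq2 result calls Cox6c, at 0.32 (adjusted p = 0.0495), and does not call Cox5a, at 0.24 (adjusted p = 0.0937). Cox6c was not called without synovial library 1 (0.0727) or 2 (0.0594), or CIA_dLN library 1 (0.1) or 3 (0.0662), and Cox5a not without synovial library 1 (0.11) or 3 (0.0711), or CIA_dLN library 1 (0.112), 2 (0.107) or 3 (0.105); on library totals the Cox5a change was -0.05. Exons of Cox6c overlap Vps13b and those of Cox5a overlap Gm26631, on the other strand, so both are uncertain. Cox4i1, the main regulatory subunit, had 7204, 6539 and 6961 in synovial Tregs, against 6878, 6766 and 6590.1 in CIA_dLN Tregs and 6607, 6756 and 6287 in Ctrl_dLN Tregs. Its groups overlapped and the difference was 0.03 (95% interval -0.16 to 0.22, adjusted p = 0.808), though on library totals it was -0.28. Cox8a, a small membrane subunit, had 2131, 1832 and 2216 in synovial Tregs, against 1556, 1905 and 1532 in CIA_dLN Tregs and 1482, 1546 and 1422 in Ctrl_dLN Tregs. Synovial and CIA_dLN values overlapped, and the difference was 0.31 (SE 0.13, adjusted p = 0.0794). Cox6b1, on the outer side, had 2987, 3073 and 2733 in synovial Tregs, against 2436, 2566 and 2541 in CIA_dLN Tregs and 2625, 2768 and 2392 in Ctrl_dLN Tregs. All synovial values were above those of CIA_dLN, with a difference of 0.22 (SE 0.10, adjusted p = 0.122). Cox6a1 differed by -0.01 (95% interval -0.25 to 0.23, adjusted p = 0.972).

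Tissue-specific partners of the complex IV subunits were scarce or listed at 0. Cox6b2, the testis form of Cox6b1, fell just short of the level required, with a mean of 9.85 over 9 libraries: 6.61, 12.9 and 7.87 in synovial Tregs, against 0.87, 0.962 and 9.61 in CIA_dLN and 18.1, 17.2 and 14.6 in Ctrl_dLN Tregs. Cox7a1, the heart and muscle form, had a mean of 6.23, Cox4i2, a form known from lung, 5.04 and Cox6a2, another heart and muscle form, 0.612. Cox8b, Cox8c, Cox7b2, Ndufa4l2 and Ndufs5 were listed at 0 in all 9 libraries. Ndufs5 is a subunit of complex I in every tissue, so its listing at 0 is given as it stands.

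Of 17 complex V members, 1 fell. Atp5g1, Atp5g2 and Atp5g3 encode the same mature c subunit, of which the rotor ring is made, and differ in their import sequences. Atp5g2 had 412, 281 and 383 in synovial Tregs, against 530.5, 556 and 573 in CIA_dLN Tregs and 607, 618 and 636 in Ctrl_dLN Tregs. Synovial values were below all node values, lowest in synovial library 2, and it fell by 0.64 (SE 0.18, adjusted p = 0.0161). Atp5g1 had 955, 847 and 973 in synovial Tregs, against 1133, 1059 and 1113 in CIA_dLN Tregs and 1358, 1426 and 1276 in Ctrl_dLN Tregs. Its 3 groups did not overlap, with Ctrl_dLN highest, and the difference between synovium and CIA_dLN was -0.25 (SE 0.12, adjusted p = 0.132). Atp5g3 had 2838, 2584 and 2957 in synovial Tregs, against 2612, 2269.7 and 2650.3 in CIA_dLN Tregs and 2560.4, 2382 and 2567 in Ctrl_dLN Tregs; synovial and CIA_dLN values overlapped, and the difference was 0.15 (SE 0.11, adjusted p = 0.297). As shares of the summed Atp5g counts, Atp5g3 made up 68.6% ± 1.07 in synovial, 60.2% ± 1.55 in CIA_dLN and 55.9% ± 1.84 in Ctrl_dLN Tregs. Atp5g1 made up 22.7% ± 0.124, 26.5% ± 0.801 and 30.2% ± 1.88, and Atp5g2 8.75% ± 1.12, 13.3% ± 0.958 and 13.9% ± 0.404 in those groups. The synovial shares did not overlap those of either node group. The Atp5g2 call did not hold without synovial library 2 (0.0518), or CIA_dLN library 3 (0.0526). Atp5g2 shares exon sequence with Mir688 on the same strand.

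**Figure D4:**
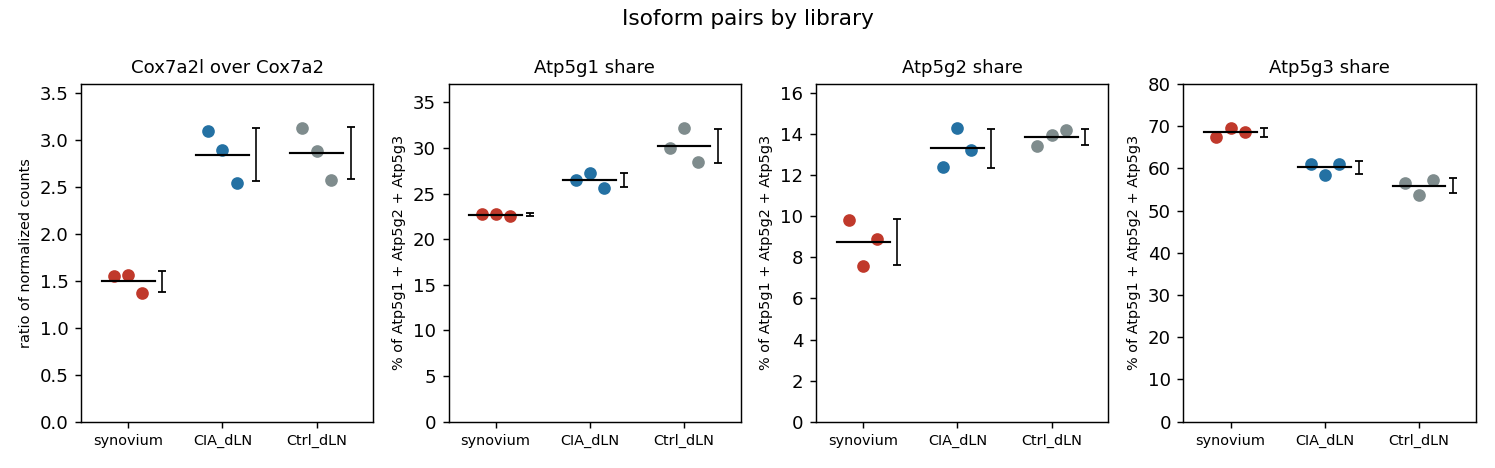
Ratio of Cox7a2l to Cox7a2 normalized counts, and the share of each Atp5g gene in the sum of Atp5g1, Atp5g2 and Atp5g3 (%), with 1 point per library, means as lines and SDs as bars. The synovial ratios of 1.37 to 1.57 lie below all node ratios (2.54 to 3.13), and the synovial Atp5g3 shares of 67.5% to 69.6% lie above all node shares (53.8% to 61.1%).

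The remaining complex V members did not pass. The catalytic subunit gene Atp5b had 7872, 6957 and 8412 in synovial Tregs, against 8617, 8945 and 8939 in CIA_dLN Tregs and 8392, 8199.8 and 9197 in Ctrl_dLN Tregs. All synovial values were below those of CIA_dLN but not of Ctrl_dLN, and the difference was -0.19 (SE 0.10, adjusted p = 0.146). The other subunits of the catalytic head differed by -0.12 (SE 0.09, adjusted p = 0.337) for Atp5a1 and -0.17 (SE 0.10, adjusted p = 0.191) for Atp5c1. Atp5h, a subunit of the peripheral stalk, had 2646, 2382 and 2276 in synovial Tregs, against 2772, 2781 and 2913 in CIA_dLN Tregs and 2794, 3015 and 2442 in Ctrl_dLN Tregs. Synovial values were below those of CIA_dLN, and the difference was -0.22 (SE 0.11, adjusted p = 0.161). Atp5d, the delta subunit of the central stalk, had 3759.6, 2893 and 4363 in synovial Tregs, against 2757, 2929.7 and 2770 in CIA_dLN Tregs and 2565, 2691 and 2889.6 in Ctrl_dLN Tregs. Synovial library 2 lay within the CIA_dLN range, and the difference was 0.36 (SE 0.14, adjusted p = 0.0606); without that library it was 0.52 (adjusted p = 0.00406, against 0.0464 to 0.817 in the other alternatives). Atp5s and Atp5sl carry Atp5 symbols but encode the coupling factor B protein and a protein now named Dmac2, linked to complex I assembly; they differed by 0.06 (SE 0.34, adjusted p = 0.913) and -0.33 (SE 0.27, adjusted p = 0.382).

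**Figure D5:**
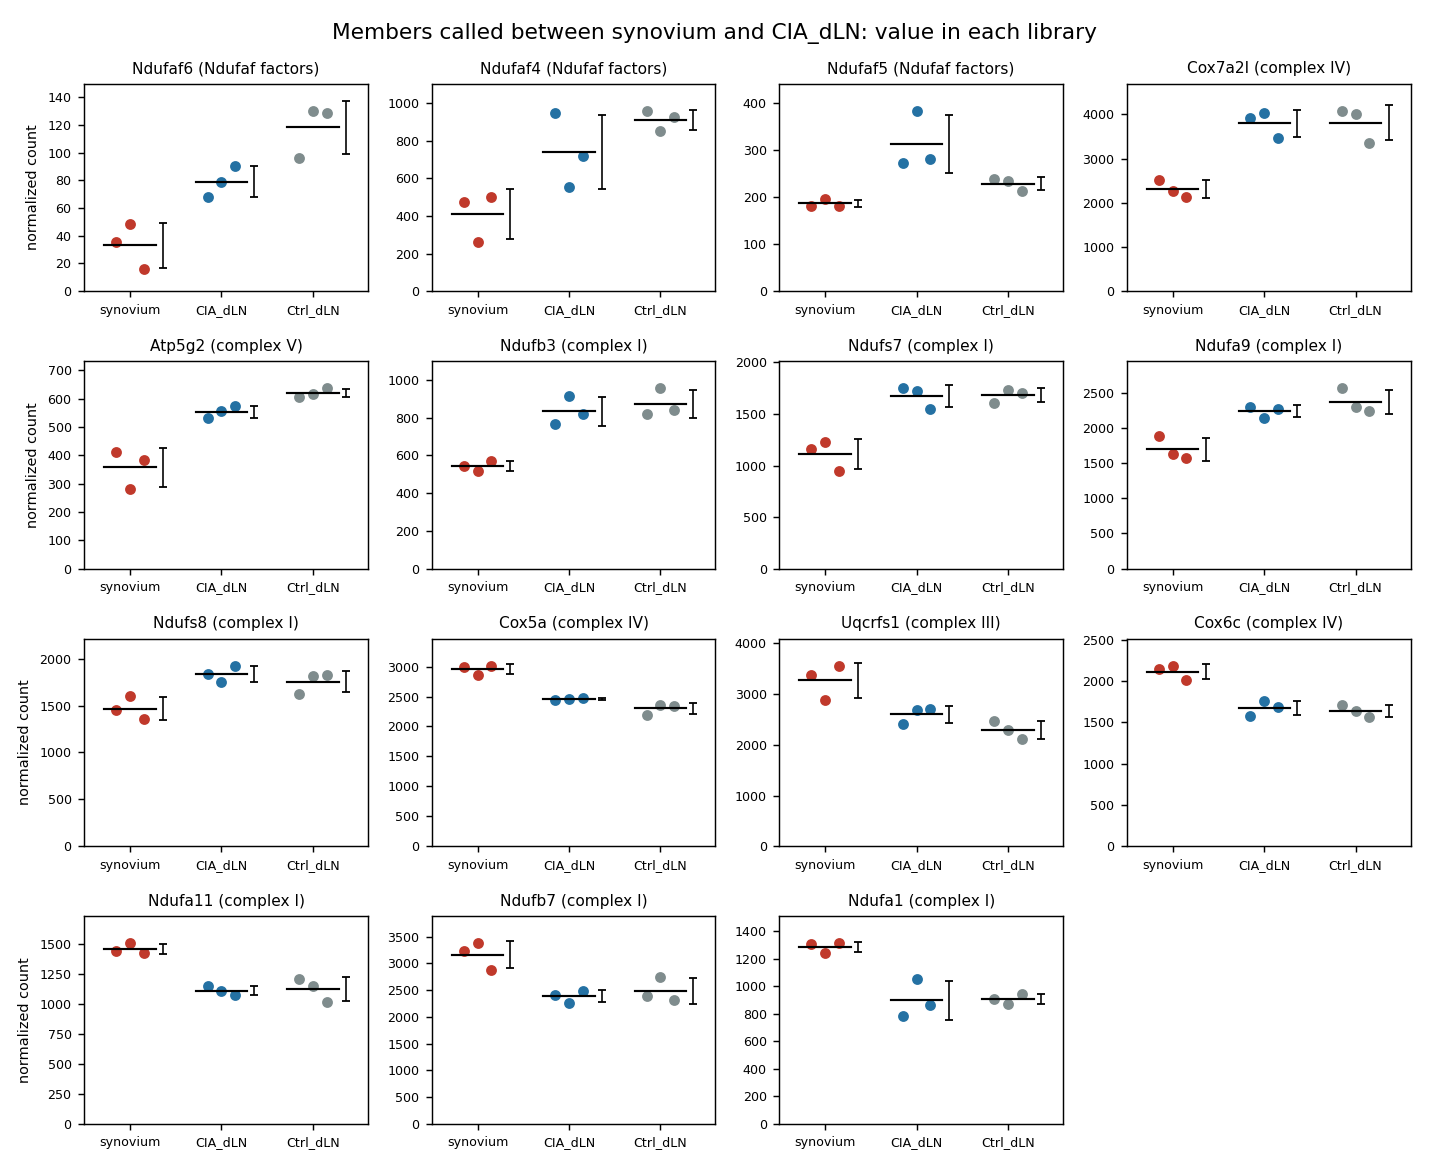
Normalized count in each library for 15 members that passed between synovium and CIA_dLN, ordered by log2 fold change from Ndufaf6 at -1.36 to Ndufa1 at 0.53, with means as lines and SDs as bars. For each of these 15, the 3 synovial points lie apart from the 3 CIA_dLN points.

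Per kilobase of transcript, members of a complex differed widely in level. Levels were divided by the length of the shortest principal protein-coding transcript. Cox4i1 was highest of complex IV at 9264 normalized counts per kb in synovial Tregs, 9053 in CIA_dLN and 8792 in Ctrl_dLN Tregs, and Cox5b lowest at 1654, 1395 and 1399. In complex III, Uqcrh reached 7372, 7713 and 7786 per kb and Uqcrc2 stood at 1453, 1560.0 and 1505. Within complex I, Ndufb7 led in synovial Tregs at 5077 per kb, where Ndufa4 had 4660.3; in CIA_dLN Tregs Ndufa4 had 4774 and Ndufb7 3827. Atp5h was highest of the 15 complex V members with a length, at 5009, 5806 and 5660 per kb, and Atp5s lowest at 71.7, 69.4 and 133. Ndufaf factors lay between 30.5 (Ndufaf6) and 297 (Ndufaf7) per kb in synovial Tregs, below every complex I subunit.

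Between CIA_dLN and Ctrl_dLN Tregs, 0 of the 79 members passed, where 0.343% of all genes did (39 of 11357; 0.335% higher and 0.00881% lower in CIA_dLN). That share over all genes was itself unsteady: it was 0% without CIA_dLN library 2 and in the fits of these groups alone with or without the block, 0.00881% without CIA_dLN library 3, and 1.51% with DESeq2. At an unadjusted p under 0.05 there were 3 members (3.8%), against 9.08% of all genes. edgeR and DESeq2, run on recovered reads of 8 libraries without Ctrl_dLN library 1, also called 0 members, and 0 at an unadjusted p. The median was -0.04 over the members and 0.01 over all genes. The 3 with an unadjusted p under 0.05 were lower in CIA_dLN. Atp5s had 117, 82.7 and 109 in CIA_dLN Tregs, against 272, 181 and 138 in Ctrl_dLN Tregs, a difference of -0.89 (SE 0.34, adjusted p = 0.462). These groups did not overlap, and Ctrl_dLN library 1 was the highest. Atp5g1, whose values stand above, differed by -0.30 (SE 0.12, adjusted p = 0.507). Ndufa5, an accessory subunit of complex I, had 635, 777 and 731 in CIA_dLN Tregs, against 878, 894 and 871 in Ctrl_dLN Tregs, a difference of -0.31 (SE 0.14, adjusted p = 0.548). Libraries of both node groups did not overlap in 13 of 79 members (16.5%), against 14.9% of all genes. Leaving out each of the 6 node libraries in turn also gave 0 calls.

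Synovial Tregs were also set against Ctrl_dLN Tregs, a comparison that shares the synovial libraries with the first and the Ctrl_dLN libraries with the second, and differs in both tissue and disease. Of the 79 members 25 passed (31.6%), against 40.1% of all genes; 8 rose (10.1%, against 21.6% of all genes) and 17 fell (21.5%, against 18.5%). At an unadjusted p under 0.05 there were 34 (43%), against 48.7% of all genes. In complex I 3 rose and 9 fell, in complex III 1 rose, in complex IV 3 rose and 1 fell, in complex V 1 rose and 2 fell, and of the 7 Ndufaf factors 5 fell. The medians were -0.14 over the members and 0.02 over all genes, and -0.84 over the Ndufaf factors. Cox7a2l fell by 0.72 (SE 0.12, adjusted p = 0.000393) and Ndufaf6 fell by 1.93 (SE 0.48, adjusted p = 0.00668). Atp5g1 fell by 0.55 (SE 0.12, adjusted p = 0.0036) and Atp5g2 fell by 0.81 (SE 0.18, adjusted p = 0.00376). Ndufaf1 fell by 0.94 (SE 0.27, adjusted p = 0.0145), but was not called with edgeR (0.0537) or DESeq2 (0.0551), or without synovial library 1 (0.0502) or 3 (0.057), or Ctrl_dLN library 1 (0.063). Among those that rose, Uqcrfs1 rose by 0.51 (SE 0.12, adjusted p = 0.00393), Cox5a rose by 0.36 (SE 0.09, adjusted p = 0.00938) and Cox8a, a small complex IV subunit, rose by 0.47 (SE 0.13, adjusted p = 0.0112); these 3 kept their calls without each library in turn and lost them under quantile normalization and on library totals, and Cox5a also lost its call with edgeR (adjusted p = 0.0783).

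The rest of the respiratory machinery was read from lists of genes chosen by function, to be read against the 17.9% of all genes that rose and the 15.9% that fell between synovial and CIA_dLN Tregs. On library totals the falls were more, with 6 of 7 complex I assembly factors, 8 of 13 regulators and 54 of 76 mitochondrial ribosome proteins. Falls were also more over all 11357 genes in that scaling, at 3325 against 1810 on the authors' scale. Between synovial and CIA_dLN Tregs, the cytochrome c group had 2 of 3 genes that rose and 1 that fell. Cycs, cytochrome c itself, averaged 1169 ± 141 in synovial Tregs, against 636 ± 17.4 in CIA_dLN Tregs (log2 fold change 0.87, SE 0.15, adjusted p = 0.000724). Hccs, which attaches its heme, averaged 1435 ± 208 in synovial Tregs, against 528 ± 183 in CIA_dLN Tregs (log2 fold change 1.49, SE 0.24, adjusted p = 0.000424). Cyc1, cytochrome c1 of complex III, averaged 1277 ± 179 in synovial Tregs, against 1677 ± 190.1 in CIA_dLN Tregs (log2 fold change -0.40, SE 0.14, adjusted p = 0.0395), and did not pass in the block fit (adjusted p = 0.0751). Each library left out in turn other than synovial library 1 also cost Cyc1 its call (adjusted p from 0.0559 to 0.158). Of 6 complex II genes 1 rose, Sdhaf1, an assembly factor, by 0.56 (adjusted p = 0.0145), not without CIA_dLN library 2 (0.0587). Sdhaf1 averaged 860 ± 121 in synovial, 580 ± 47.1 in CIA_dLN and 920 ± 89.8 in Ctrl_dLN Tregs, so CIA_dLN was the low group. Against Ctrl_dLN, 0 complex II genes passed.

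Assembly factors outside the Ndufaf names included falls for complexes I, III and V and changes both ways for complex IV. Of 7 complex I factors, 2 fell: Ecsit changed by -1.27 (adjusted p = 0.00182) and Tmem126b by -1.20 (adjusted p = 0.00126). Lyrm7, a chaperone of Uqcrfs1, changed by -2.44 (adjusted p = 0.00139) and was the 1 of 3 complex III factors that passed. Of 20 complex IV factors, 3 rose and 4 fell; Cox11 changed by 1.24 (adjusted p = 0.00212), Cox10 by -0.89 (adjusted p = 0.00214) and Higd1a by 0.73 (adjusted p = 0.00391). Tmem242 was the 1 of 5 complex V factors that passed, at -0.56 (adjusted p = 0.0203), and did not pass without synovial library 1 (0.0637) or CIA_dLN library 2 (0.0579) or 3 (0.0735).

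Coenzyme Q and carrier genes included changes far larger than those of the subunits. Adck3, also named Coq8a, a kinase-like protein of coenzyme Q synthesis, averaged 6863 ± 955 in synovial Tregs, against 404 ± 45.3 in CIA_dLN Tregs (log2 fold change 4.08, SE 0.17, adjusted p = 1.26e-08). Coq10b, a coenzyme Q binding protein, averaged 3529 ± 1207 in synovial Tregs, against 350.1 ± 117 in CIA_dLN Tregs (log2 fold change 3.32, SE 0.29, adjusted p = 4.14e-06); both rose and they were the 2 of 13 genes of that list to pass. Slc25a3, the mitochondrial phosphate carrier, averaged 15737 ± 1124 in synovial Tregs, against 4517 ± 64.3 in CIA_dLN Tregs (log2 fold change 1.80, SE 0.09, adjusted p = 4.05e-08). Slc25a4, an ADP and ATP exchanger, changed by -0.38 (adjusted p = 0.0188), and its call was lost without synovial library 1 (0.0658) or 2 (0.0527) or CIA_dLN library 1 (0.0686) or 3 (0.0628). Of 8 genes of uncoupling and alternative electron entry, 3 rose and 2 fell: Gpd2 changed by 0.93 (adjusted p = 0.00715), Dhodh by -0.83 (adjusted p = 0.00556) and Prodh by -1.91 (adjusted p = 0.0217). The 3 rises came to 1 in the block fit, with TMM, edgeR, no filter or no variance trend, under quantile normalization, on library totals, and without synovial library 2 or 3 or CIA_dLN library 1 or 2. Prodh did not pass in the block fit (0.0504) or without synovial library 2 (0.0729) or 3 (0.0566) or CIA_dLN library 1 (0.0553) or 2 (0.0759).

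Regulators of mitochondrial biogenesis gave 1 rise and 3 falls among 13. Gabpb1, a partner of the ETS factor GABP, averaged 6927 ± 938 in synovial Tregs, against 1607 ± 151 in CIA_dLN Tregs (log2 fold change 2.10, SE 0.12, adjusted p = 1.42e-07). Ppargc1b, a coactivator of respiratory genes, averaged 18.2 ± 6.26 in synovial Tregs, against 104 ± 18.6 in CIA_dLN Tregs (log2 fold change -2.50, SE 0.45, adjusted p = 0.00113). Lrpprc, which stabilizes mitochondrial mRNA, averaged 386 ± 40.8 in synovial Tregs, against 729.9 ± 32.2 in CIA_dLN Tregs (log2 fold change -0.92, SE 0.16, adjusted p = 0.000896). The mitochondrial ribosome, which translates the subunits encoded by mitochondrial DNA, had 32 of 76 proteins (Mrpl and Mrps names) that fell and 4 that rose, with a median of -0.43. These counts came to 3 rises and 23 falls in the block fit, and to between 2 and 3 rises and between 13 and 27 falls when 1 library was left out; the fewest falls, 13, were without CIA_dLN library 1. Mrpl30 changed by -0.84 (adjusted p = 0.000246), Mrps34 by -0.76 (adjusted p = 0.000822) and Mrpl23 by -0.86 (adjusted p = 0.000847). Between CIA_dLN and Ctrl_dLN Tregs, 0 genes of any of these lists passed, where 0.343% of all genes did. Complex I factors outside the Ndufaf names gave 0 rises and 5 falls of 7 between synovial and Ctrl_dLN Tregs, and the mitochondrial ribosome 4 rises and 42 falls of 76, where 21.6% of all genes rose and 18.5% fell.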

How the data were processed

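RNA was sequenced from sorted Tregs of 3 synovial, 3 CIA_dLN and 3 Ctrl_dLN samples. The submitters' processing notes name HISAT2, HTSeq, DESeq2 and the mouse build mm10, with no versions; per the labels' protocols, RNA was taken with Trizol and libraries made with a directional NEBNext kit. Whether counting used strand is not given in the sources used here. Values of the deposited expression table are a signal per gene and library, namely read counts that the authors divided by a size factor per library. A second deposited table holds, per the file headers, the authors' log2 fold change of synovium against CIA_dLN with its standard error, a Wald score, p-values and adjusted p-values.

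In 8 libraries 100% of values were whole multiples of a step within 0.01, which gives 11844390 to 12855435 reads per library, and edgeR and DESeq2 ran on these reads. In the Ctrl_dLN library numbered 1 100% of values were also whole multiples of a step, of 1.00367. That step was judged too near 1 for this check, so its reads are not counted as recovered and it was left out of those fits. The depth sets a floor of 3 reads for a value of 0; 72 members had a mean of 500 or more, and each group has 3 samples.

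Values were tested with limma 3.58.1 (R 4.3.3; lmFit, and eBayes with a variance trend) as log2(value + 1) over all 9 libraries, for genes with a mean of 10 or more, two-sided, with Benjamini-Hochberg adjustment over 11357 genes and a threshold of 0.05. A pseudocount of 1 understates the change of low genes. Here the alternatives were edgeR 4.0.16 (quasi-likelihood), DESeq2 1.42.0, other pseudocounts, filters and scalings, fits of the groups compared alone, with and without the mouse number as a block, and leaving out each library. TMM factors were computed on the deposited values, not on reads as planned. Titles tie the synovial and CIA_dLN libraries of a number to the same mouse; their deviations from the group means correlated at r = 0.0239, 0.054 and 0.0891 across genes. The scripts were tested on simulated data.

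The members and all gene lists were chosen with earlier results of these data known. Full values are given for up to 5 members per complex with the smallest p between synovium and CIA_dLN, and up to 3 genes per other list that passed, by smallest p; other members are named as examples. Positions and transcript lengths come from GENCODE on GRCm38, where 77 of 79 members matched by symbol. Of these, 29 share exon sequence with another gene, 26 of them on the other strand. Uqcrb, Uqcrc2, Cox4i1 and Atp5d are among these 26 and are uncertain in the same way. A rerun of DESeq2 on the 6 synovial and CIA_dLN libraries and the deposited table differed by at most 1.36e-06 in log2 fold change. Values of 1 member are not reported here, though counts, sums and medians include it.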

Additional observations from a re-analysis of the deposited data

How the results depend on the processing

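Between synovial and CIA_dLN Tregs, the counts of members that rose and fell were 6 and 10. They were 0 and 29 under quantile normalization, 0 and 47 on library totals (chosen after seeing the data), 3 and 10 with edgeR, 2 and 7 with the replicate block, and 2 and 7 without a variance trend; leaving out 1 library gave 2 to 6 that rose and 3 to 10 that fell. Over all 11357 genes the falls numbered 1810, then 2344 under quantile normalization and 3325 on library totals. Of the 16 calls of members, 8 were kept in the block fit, and Cox7a2l, Ndufb3 and Ndufs7 were kept in all 18 alternatives. For synovial against Ctrl_dLN Tregs the counts were 8 and 17, then 0 and 42 under quantile normalization, 0 and 55 on library totals, 4 and 15 with edgeR, and 5 and 15 with the 2 groups alone; leaving out 1 library gave 5 to 7 that rose and 12 to 19 that fell. Over all 11357 genes the falls against Ctrl_dLN numbered 2100, then 2747 under quantile normalization and 3519 on library totals. Between CIA_dLN and Ctrl_dLN 0 members were called in each setting run.

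Signs of members near 0 turned in several settings: between synovium and CIA_dLN in 24 of 79 on library totals, 18 under quantile normalization and 4 to 8 without 1 library. Where the value was called in either fit, the turned signs were these: between synovium and CIA_dLN, Cox4i1 was at -0.42 and Uqcrc1 at -0.39 under quantile normalization, and Cox4i1 at -0.28, Uqcrc1 at -0.29, Ndufb9 at -0.31 and Cox5a at -0.048 on library totals. Against Ctrl_dLN, Cox4i1 was at -0.41 under quantile normalization and -0.24 on library totals. Apart from the shift of all genes by the scaling, the cause was not tested.

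In the other comparisons a shared number joins different mice. The replicate block there left 0 calls between CIA_dLN and Ctrl_dLN, and 7 rises and 14 falls against Ctrl_dLN, where Ndufaf2 (adjusted p = 0.0679), Ndufa11 (0.0609), Ndufa3 (0.0587) and Ndufab1 (0.0895) did not pass. With 3 samples a group, the members' median size of 0.20 between synovium and CIA_dLN lay below the smallest change called there, 0.27 for Cox5a. Changes of the size of most members could therefore be missed by the test.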
